A study of Mus musculus with 20 samples.

Results

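The 9 genes described here are immediate early genes: Fos, Fosb, Jun and Junb, which encode subunits of the transcription factor AP-1, Egr1 and Egr2, which encode zinc-finger transcription factors, Dusp1 and Dusp2, which encode nuclear phosphatases of MAP kinases, and Ier2, which encodes a nuclear protein. They were listed by name and found by gene symbol in the annotation of the array. They account for 9 of the 8251 genes named by a single symbol and for 12 of the 12488 probe sets, and all 9 passed the filter on dim genes, which left 6279 genes to be tested. RNA came from CD8 T cells of C57Bl6 mice aged 6 to 8 weeks that carry the OT-1 T cell receptor transgene, so that nearly every cell recognises the same ovalbumin peptide on H-2Kb. CD44-low CD8 cells were enriched from lymph nodes by removal of other cells and were either left unstimulated (naive, 0 h, 3 arrays) or cultured for 24, 48 or 72 h on beads that carried that peptide on H-2Kb together with B7-1, a costimulatory ligand of CD28 (Ag-B7). Ag-B7 was given alone, with IL-12 or with universal type I interferon (IFNa/b), and at 72 h also with the histone deacetylase inhibitor trichostatin A (TSA). At 48 h there were 4 arrays of Ag-B7, 3 with IL-12 and 3 with IFNa/b, and the other 7 groups had 1 array each. IL-2 was present in every culture and every culture received Ag-B7, so what antigen did and what IL-2 or the hours in culture did cannot be told apart.

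Immediate early genes are transcribed within minutes of a signal, without new protein synthesis, and most are silenced again soon after. In T cells the signal reaches them from the antigen receptor through RAS and the MAP kinases, which phosphorylate ternary complex factors bound beside serum response factor at CArG boxes, and through calcium and cyclic AMP, which act on CREB at CRE sites. Their products switch on later genes (AP-1 acts with NFAT at cytokine genes, and EGR factors switch on cell cycle and anergy genes) or switch the MAP kinases off again (the DUSP phosphatases). The same genes are also known to respond to handling of tissue and cells, and their mRNAs are short-lived.

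Promoter sequences show which of these signal-responsive elements lie within 250 bases before the start sites of some of the genes. Elements farther away were not searched, so a gene without a match here may still have one. Whether the matches bear on the responses below was not tested. The bases come from RefSeq on build GRCm38.p6, where 7 of the 9 genes were matched at 11 start sites. Each run reads 5′ to 3′ on the gene's own strand, and the bases in capitals mark a CRE half-site (TGACG, or CGTCA on the other strand), a TATA box (TATAAA) or a CArG box. Fos, Junb and Dusp1, which were lower in culture, and Dusp2, which did not pass the test, are shown with the 200 bases before the start. For Egr2, 30 bases around the CArG box before the third of its 5 starts are shown.
Fos (chr12:85473690-85473889, plus strand): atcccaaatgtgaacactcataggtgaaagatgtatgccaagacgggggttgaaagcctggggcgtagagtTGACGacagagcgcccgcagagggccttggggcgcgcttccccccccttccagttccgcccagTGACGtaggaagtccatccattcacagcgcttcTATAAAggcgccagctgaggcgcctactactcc
Junb (chr8:84978749-84978948, minus strand): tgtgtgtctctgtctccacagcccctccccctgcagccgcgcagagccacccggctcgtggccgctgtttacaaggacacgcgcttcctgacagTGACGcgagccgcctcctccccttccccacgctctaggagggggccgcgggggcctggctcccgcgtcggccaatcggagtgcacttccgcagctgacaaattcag
Dusp1 (chr17:26508473-26508672, minus strand): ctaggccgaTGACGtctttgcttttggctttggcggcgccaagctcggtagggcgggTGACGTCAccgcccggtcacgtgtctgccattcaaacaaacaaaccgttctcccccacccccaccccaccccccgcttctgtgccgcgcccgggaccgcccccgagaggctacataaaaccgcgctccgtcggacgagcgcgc
Dusp2 (chr2:127335959-127336158, plus strand): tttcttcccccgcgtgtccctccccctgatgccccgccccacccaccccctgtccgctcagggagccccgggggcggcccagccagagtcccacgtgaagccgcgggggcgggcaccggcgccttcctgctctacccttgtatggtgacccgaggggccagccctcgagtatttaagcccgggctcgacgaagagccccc
Egr2 (chr10:67537793-67537822, plus strand): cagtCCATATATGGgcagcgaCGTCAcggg

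Within the 250 bases before the start, the Fos promoter held 2 CRE half-sites, at 129 to 125 and 66 to 62 bases before the start, and a TATA box at 33 to 28. Junb held 1 CRE half-site, at 106 to 102. Dusp1 held 3, of which 2 on opposite strands overlap in the palindrome TGACGTCA, the full CRE. Fosb held 1 half-site at 60 to 56, and the windows of Jun and Dusp2 held no match to these motifs or to an AP-1 site (TGANTCA). At the third start of Egr2 the CArG box lay 72 to 63 bases before the start, between CRE half-sites at 111 to 107 and 55 to 51. Of 32851 mouse promoter windows of the same length, searched on both strands, 1.47% held a CArG box, 17.8% a CRE half-site, 6.75% an AP-1 site, 12.4% a TATA box and 93.4% the ETS core GGAA. A match describes letters only, and binding was not measured.

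The T cell identity of the samples was checked first. All 10 genes on the array listed for CD8 T cells, among them Cd8b1, were above the 40th percentile of the array on all 20 arrays. Their summed signal was 72447 to 128686 on naive arrays and 64935 to 128924 on stimulated ones. The list holds Cd8a and Cd8b1 beside genes of T cells in general, such as Cd3e, so the sum does not tell CD8 from CD4 T cells. Naive arrays differed from stimulated ones in other ways. The ratio of 3′ to 5′ actin signal, a measure of RNA integrity and labelling, was 1.13, 2.06 and 1.61 on naive replicates 1, 2 and 3 and 1.00 to 1.15 on the 17 stimulated arrays. The summed signal of 13 myeloid and dendritic cell markers (highest Ctss) was 14057 to 18096 on naive and 2419 to 9038 on stimulated arrays, that of 3 erythroid and platelet markers (highest Hba-a1) 6210 to 14512 against 332 to 773, and that of 8 stromal and endothelial markers (highest Col1a2) 4738 to 12340 against 1939 to 4102. The other marker ranges overlapped: 9 B cell markers (highest Cd74) summed to 2594 to 6361 against 2081 to 5026, 3 CD4 and gamma-delta T cell markers to 654 to 1644 against 137 to 805, and the 1 NK marker to 14 to 115 against 2 to 127. Cd4, the highest of its list, was above the 40th percentile on 17 of the 20 arrays, with a naive mean of 928 and a stimulated median of 308. Of the 13 myeloid markers 7 were tested, of which 5 were lower and 0 higher in each of the 3 cultures at 48 h than in naive cells. Within this list Adgre1, Fcer1g, Itgam, Lyz2 and Tyrobp (named after their values were seen) stayed below the 40th percentile on all 20 arrays. The other 8, among them Cd14, Csf1r, Itgax and Ctss, were above it on at least 2.

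The values are MAS5 signals, scaled by the authors to a common mean per array. Tests were run on log2(signal + 46.4) with limma, and a gene was called at an adjusted p below 0.05 over all genes tested. On this scale 5 of the 9 genes were lower after 48 h of Ag-B7 than in naive cells (Fos, Fosb, Jun, Junb and Dusp1) and 0 were higher, where 35.6% of all genes tested were called lower and 26.1% higher. The groups of these 5 did not overlap, with all Ag-B7 arrays below all naive ones, which held for 31.6% of all genes. The median log2 difference of the 9 was -1.50, and that of all genes -0.23. Scaling to the spiked-in control transcripts, in place of the mean of each array, raised the median of all genes to 1.31, and with it 2 genes (Fos and Dusp1) were called lower and 4 (Egr1, Egr2, Dusp2 and Ier2) higher, where 1.51% of all genes were called lower and 60.2% higher. The controls were BioB, BioC, BioDn and CreX, and whether they track RNA per cell was not tested, so this scale is not absolute. Quantile normalization put the median of all genes at 0.03 and median centring at 0.41. Differences are therefore relative to the rest of each array, and in bulk RNA fewer cells of a type and less RNA per cell cannot be told apart. Whether the actin ratio or the other cell types' markers had a part in the naive levels was not tested.

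**Figure D1:**
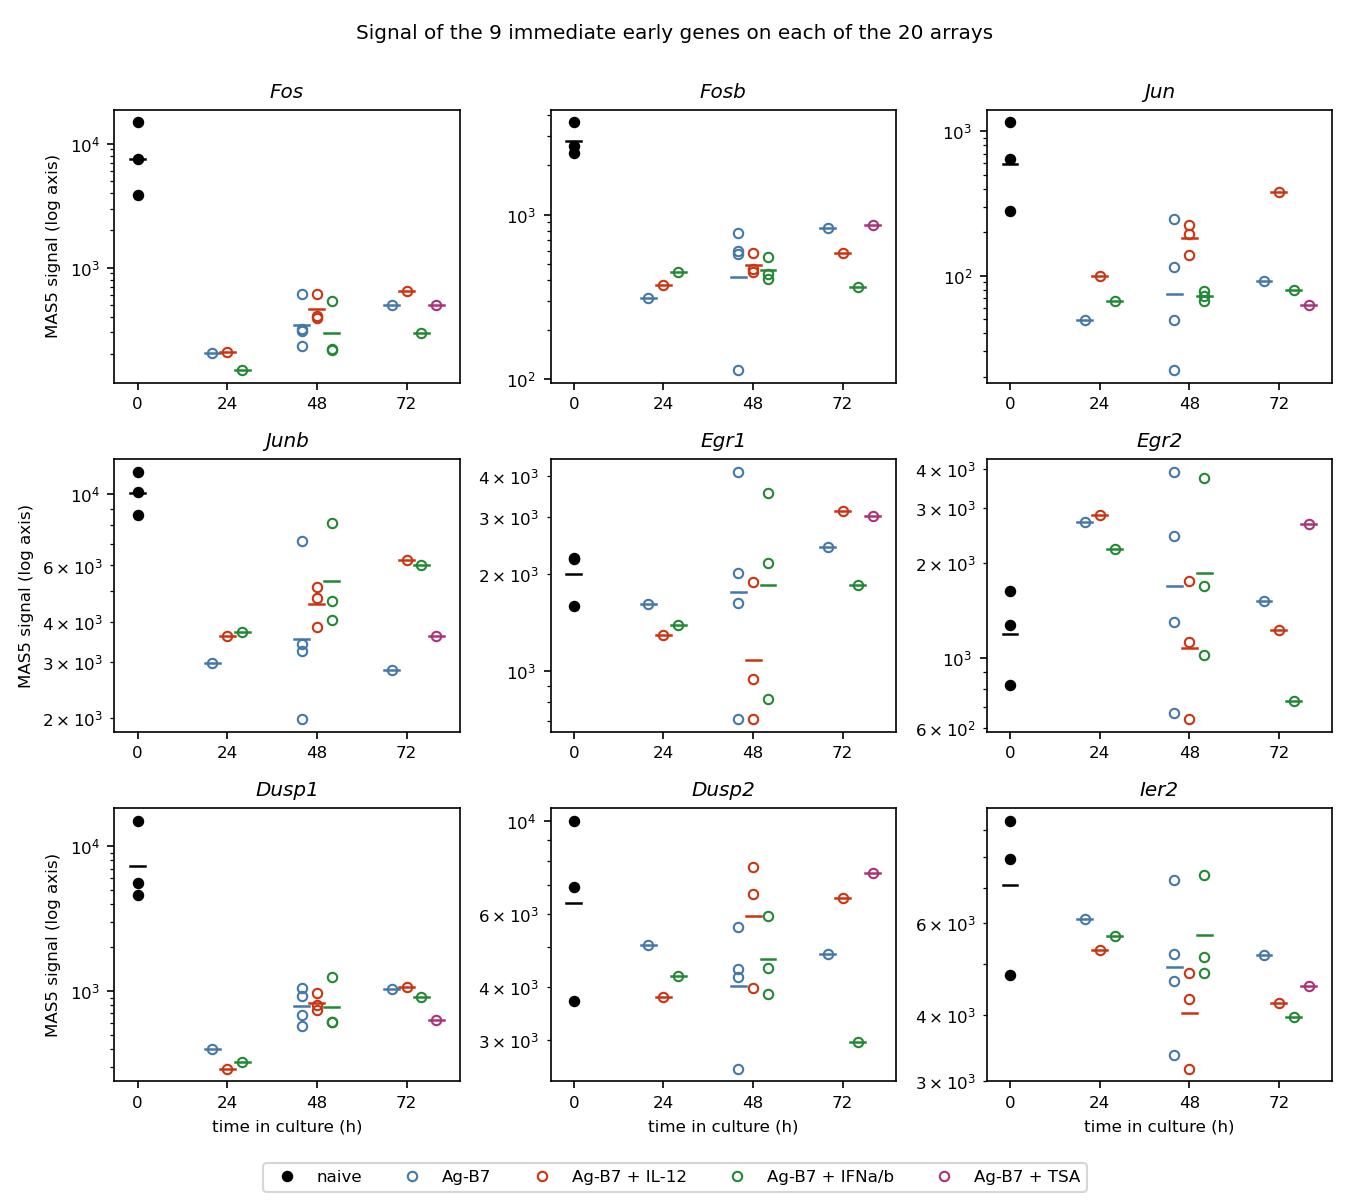
MAS5 signal (log axis, arbitrary units) of each of the 9 genes against time in culture in h. Each circle is 1 array, each short line the geometric mean of the arrays of a group, and colours name the culture. On these deposited signals, the 17 stimulated arrays of Fos, Fosb, Junb and Dusp1 all lie below the 3 naive arrays, an order that spike-in scaling turns for the Junb differences. The share of all genes with this order over the 17 arrays was not counted. For the single groups at 48 h it was 31.6% to 35.4%.

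Fos, the AP-1 subunit that dimerises with Jun proteins, gave signals of 14894, 7474 and 3876 on naive replicates 1, 2 and 3. At 48 h it gave 233, 309, 321 and 618 on the 4 Ag-B7 arrays, 619, 393 and 406 with IL-12, and 217, 220 and 537 with IFNa/b. The naive arrays themselves spanned 3.84-fold, and the lowest of them was above all 17 stimulated arrays, whose signals ran from 149 to 651 with a median of 321. The share of all genes with that order over the 17 arrays was not counted, here or for the genes below. The log2 difference from naive was -4.27 ± 0.41 (SE, n = 4 and 3, limma adjusted p = 3.49e-07) for Ag-B7, a 19.3-fold lower level. It was -3.90 ± 0.44 with IL-12 and -4.47 ± 0.44 with IFNa/b. A second, dim probe set of Fos showed 310, 593 and 367 on naive arrays and at most 105 on stimulated ones. It was above the 40th percentile only on the naive arrays and passed the filter through them, so its log2 difference of -2.01 is given as a description.

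Fosb, a Fos relative with the same dimer partners, gave 2364, 3625 and 2600 on naive arrays. The Ag-B7 arrays at 48 h gave 599, 114, 770 and 580, those with IL-12 585, 449 and 467, and those with IFNa/b 407, 553 and 436. Every stimulated array was below every naive array, and Ag-B7 replicate 2 stood apart at the low end. The log2 differences were -2.58 ± 0.41 for Ag-B7 (limma adjusted p = 6.45e-05), -2.40 ± 0.44 with IL-12 and -2.49 ± 0.44 with IFNa/b. Under spike-in scaling the Ag-B7 difference was -0.86 (limma adjusted p = 0.104).

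Jun, a member of the Jun family with which Fos proteins pair to bind DNA, was near the background on most arrays. Naive arrays gave 1154, 644 and 281. Ag-B7 arrays at 48 h gave 50, 115, 248 and 22, those with IL-12 226, 139 and 195, and those with IFNa/b 67, 73 and 79. Only 6 of 20 arrays were above the 40th percentile, naive replicates 1 and 2 and 4 stimulated arrays, of which 3 had IL-12. The log2 difference from naive was -2.28 ± 0.49 for Ag-B7 (limma adjusted p = 0.000804) and -2.44 ± 0.52 with IFNa/b. Since 3 of 4 Ag-B7 arrays and all 3 IFNa/b arrays lay below that percentile, the sizes of these differences are uncertain. With IL-12 it was -1.49 ± 0.52 (limma adjusted p = 0.0213). That last call was lost without naive replicate 1 (-1.05, limma adjusted p = 0.109), without naive replicate 2 (0.0517), without IL-12 replicate 2 (0.0689), and under 3 other scalings (quantile 0.134, median 0.149 and spike-in 0.836). Under spike-in scaling the Ag-B7 and IFNa/b calls for Jun were lost as well (limma adjusted p = 0.133 and 0.125).

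Junb, an AP-1 subunit that restrains Jun activity and takes part in T helper and effector programmes, gave 11775, 8639 and 10184 on naive arrays. It remained well above the dim range in culture: 1985, 3254, 3415 and 7142 with Ag-B7 at 48 h, 3854, 5156 and 4755 with IL-12, and 4055, 4646 and 8160 with IFNa/b. The stimulated arrays were lower without overlap but reached 8160, close to the lowest naive array. The log2 difference was -1.50 ± 0.32 for Ag-B7 (limma adjusted p = 0.000873), -1.14 ± 0.35 with IL-12 (0.00983) and -0.91 ± 0.35 with IFNa/b (0.0323). A second probe set, fitted with all probe sets, gave larger differences, -2.17 ± 0.31, -1.52 ± 0.33 and -1.50 ± 0.33 (limma adjusted p = 2.96e-05, 0.00124 and 0.00137). The probe set that stands for Junb turned with the scaling, and the second was not fitted under other scalings. Under median centring all 3 calls were lost (limma adjusted p = 0.0522, 0.250 and 0.541), and under spike-in scaling the differences were 0.27, 0.42 and 0.94, none called. The IFNa/b call was also lost without naive replicate 1 (0.0878) or 3 (0.0666) without IFNa/b replicate 1 (0.133) or 2 (0.0947), and with no variance trend in the fit (0.0565). With naive replicate 1 as the only naive array, the IL-12 and IFNa/b calls were lost (0.0518 and 0.09998), the spread of that lone array being taken from the other groups.

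Neither EGR gene was called against naive cells in the 3 cultures at 48 h on the deposited scale. Egr1, which drives growth and cytokine genes, gave 1592, 2230 and 2225 on naive arrays and 707, 1621, 2006 and 4140 with Ag-B7 at 48 h, 710, 942 and 1884 with IL-12, and 819, 2161 and 3558 with IFNa/b. Over the 17 stimulated arrays 6 were below and 5 above all naive arrays. The log2 difference for Ag-B7 was -0.17 with a 95% interval from -1.22 to 0.89 (limma adjusted p = 0.782). With IL-12 it was -0.85 (-1.98 to 0.28), and with IFNa/b -0.10 (-1.23 to 1.03). The intervals of Egr1 for Ag-B7 and of Fos for Ag-B7 (-5.13 to -3.41) do not meet, although the difference between the 2 genes was not tested. Under spike-in scaling Egr1 was 1.55 higher with Ag-B7 (limma adjusted p = 0.00814) and 1.70 higher with IFNa/b (0.00653). A second probe set of Egr1 was too dim to be tested.

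Egr2, a regulator of anergy and of T cell expansion, gave 821, 1631 and 1272 on naive arrays. At 48 h it gave 670, 1305, 2437 and 3915 with Ag-B7, 638, 1121 and 1763 with IL-12, and 1021, 1699 and 3734 with IFNa/b. Of the 17 stimulated arrays 9 were above all naive arrays and 3 below. The log2 difference was 0.50 (-0.57 to 1.57, limma adjusted p = 0.402) for Ag-B7, -0.14 with IL-12 and 0.63 with IFNa/b, none called. Spike-in scaling gave calls of 2.18 for Ag-B7, 1.35 with IL-12, where the sign turned, and 2.39 with IFNa/b (limma adjusted p = 0.000197, 0.0316 and 0.000145).

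Dusp1 (MKP-1), which switches off p38, JNK and ERK in the nucleus, was lower in all 3 cultures. Naive arrays gave 14973, 4586 and 5535. Ag-B7 arrays at 48 h gave 917, 570, 683 and 1056, those with IL-12 974, 738 and 799, and those with IFNa/b 606, 612 and 1245. All 17 stimulated arrays were below all naive arrays. The log2 difference was -3.13 ± 0.35 for Ag-B7 (8.77-fold, limma adjusted p = 2.19e-06), -3.05 ± 0.38 with IL-12 and -3.15 ± 0.38 with IFNa/b. Fos and Dusp1 were the 2 members called lower under every scaling, with spike-in values of -2.54 and -1.39 for Ag-B7, -2.34 and -1.50 with IL-12, and -2.66 and -1.32 with IFNa/b.

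Dusp2 (PAC-1), the phosphatase described as specific to activated lymphocytes, gave 9982, 3703 and 6948 on naive arrays. It gave 2558, 4223, 4414 and 5585 with Ag-B7 at 48 h, 6679, 3991 and 7745 with IL-12, and 3865, 5907 and 4457 with IFNa/b. Most stimulated arrays lay among the naive ones: 2 of 17 were below all of them. The Ag-B7 log2 difference of -0.65 (-1.32 to 0.03) was not called (limma adjusted p = 0.0870), but without naive replicate 2 it was -1.03 (0.00927) and under quantile normalization -0.83 (0.0330). With IL-12 the difference was -0.10 and with IFNa/b -0.44, the latter called at -0.83 without naive replicate 2 (0.0388). Spike-in scaling turned the values to 1.11 with Ag-B7, 1.45 with IL-12 and 1.40 with IFNa/b, all called (limma adjusted p = 0.0494, 0.0183 and 0.0202).

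Ier2 was bright throughout, with 9380, 4774 and 7941 on naive arrays. It gave 3361, 5228, 4642 and 7247 with Ag-B7 at 48 h, 3164, 4811 and 4302 with IL-12, and 4803, 5163 and 7402 with IFNa/b. The groups overlapped in all 3 comparisons, with 7 of 17 stimulated arrays below all naive ones. The log2 difference was -0.52 (-1.09 to 0.05, limma adjusted p = 0.103) for Ag-B7 and -0.32 with IFNa/b. With IL-12 it was -0.81 ± 0.29 and called (limma adjusted p = 0.0237), which made 6 of the 9 genes lower in that comparison, where 34% of all genes were called lower and 24.8% higher. With IFNa/b 5 of the 9 were lower, against 33.1% of all genes lower and 25.3% higher. The arrays of 5 members lay below all naive ones with IL-12, against 34.8% of all genes, and of 5 with IFNa/b, against 35.4%. The IL-12 call for Ier2 was lost without naive replicate 1 (0.0991) or 3 (0.0732), without IL-12 replicate 1 (0.107) and under median centring (0.648), while spike-in scaling turned the value to 0.75. The Ag-B7 value became a call without naive replicate 2 (-0.80, 0.0179), without Ag-B7 replicate 4 (-0.70, 0.0339) and under quantile normalization (-0.74, 0.0239). The 3 comparisons share the naive arrays, so their like results are not independent.

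**Figure D2:**
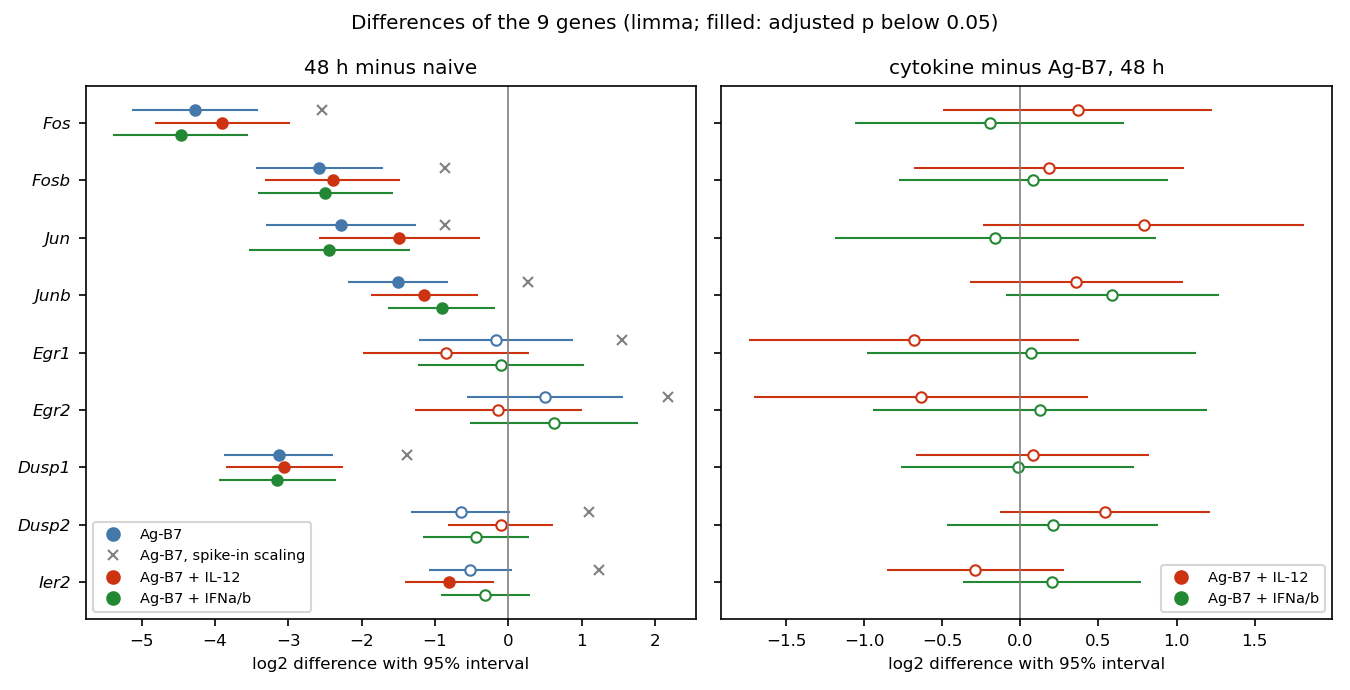
Log2 differences of the 9 genes from limma with 95% intervals, at left for the 3 cultures at 48 h minus naive, at right for each cytokine culture minus Ag-B7 alone. Filled points have an adjusted p below 0.05 and grey crosses give the Ag-B7 value under spike-in scaling, where Junb, Egr1, Dusp2 and Ier2 change sign and Fos and Dusp1 remain lower.

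Addition of a cytokine was tested next, among the cultures at 48 h. None of the 9 genes was called in any of the 3 comparisons by limma, and 0 had an unadjusted p below 0.05, against 5.8%, 4.55% and 4.83% of all genes in the order of the next sentence. Of all genes 0.621% were called in either direction for IL-12 against Ag-B7, 0.43% for IFNa/b against Ag-B7 and 0.94% for IL-12 against IFNa/b. The smallest adjusted p of a member was 0.998. The second probe set of Junb, fitted with all probe sets, had an unadjusted p of 0.0487 for IFNa/b against Ag-B7 (0.67, limma adjusted p = 1.00) and of 0.0546 for IL-12 against Ag-B7 (0.65, limma adjusted p = 0.943). The intervals bound what these arrays could show. For IL-12 against Ag-B7, Fos differed by 0.37 (-0.49 to 1.23), Jun by 0.79 (-0.24 to 1.82), Dusp2 by 0.54 (-0.13 to 1.22), Egr1 by -0.68 (-1.74 to 0.37) and Egr2 by -0.64 (-1.71 to 0.43). For IFNa/b against Ag-B7, the value farthest from 0 was that of Junb, 0.59 (-0.09 to 1.27), while Dusp1 stood at -0.02 (-0.76 to 0.73). Jun was the 1 gene whose arrays did not overlap between cytokines, with 139 to 226 on the IL-12 arrays and 67 to 79 on the IFNa/b arrays (0.95, -0.15 to 2.05), and 6.05% of all genes had IL-12 arrays that all lay above the IFNa/b arrays.

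Junb was the 1 member called in any fit of this comparison. Ag-B7 and IL-12 arrays of the same replicate number deviated together (correlations of 0.280, 0.279 and 0.276 for numbers 1, 2 and 3), and in each of these 3 pairs Junb was higher with IL-12: 3854 against 1985, 5156 against 3254, and 4755 against 3415. With the replicate number as a block in these arrays alone, a fit added after the data had been seen, Junb was 0.69 higher with IL-12 (limma adjusted p = 0.0146), the 1 member called, and 108 genes were called higher. The block fit of all 13 replicated arrays also joins the IFNa/b arrays by number. In it the same value had a limma adjusted p of 0.408. Ag-B7 replicate 4, whose number no IL-12 array shares and which had the highest Junb of its group, adds nothing to either block value.

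The genes varied between arrays at 48 h, also within a culture, and part of that variation was shared. Over the 10 arrays of the 3 cultures Egr1 spanned 5.85-fold, Egr2 6.13-fold, Junb 4.11-fold and Ier2 2.34-fold. Within the 4 Ag-B7 arrays these spans were 5.85-fold, 5.84-fold, 3.60-fold and 2.16-fold. The widest spans over the 10 arrays were those of Jun, near background, at 11.2-fold and of Fosb at 6.77-fold. Ag-B7 replicate 4 and IFNa/b replicate 3 held the highest 2 of the 10 signals for Junb, Egr1, Egr2, Dusp1 and Ier2. For Egr1 they gave 4140 and 3558, where the next array gave 2161, and for Egr2 3915 and 3734, where the next gave 2437. Ag-B7 replicate 4 also had the lowest Jun signal, 22, and for Dusp2 both arrays were below the highest 3. Ag-B7 replicate 1 had the lowest signal of the 10 for Junb, Egr1 and Dusp2, and IL-12 replicate 1 for Egr2 and Ier2. Over all genes the residuals of Ag-B7 replicate 4 and IFNa/b replicate 3 correlated at 0.454, more than any pair of the same number. Their actin ratios of 1.07 and 1.07 were within the range of the other stimulated arrays.

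**Figure D3:**
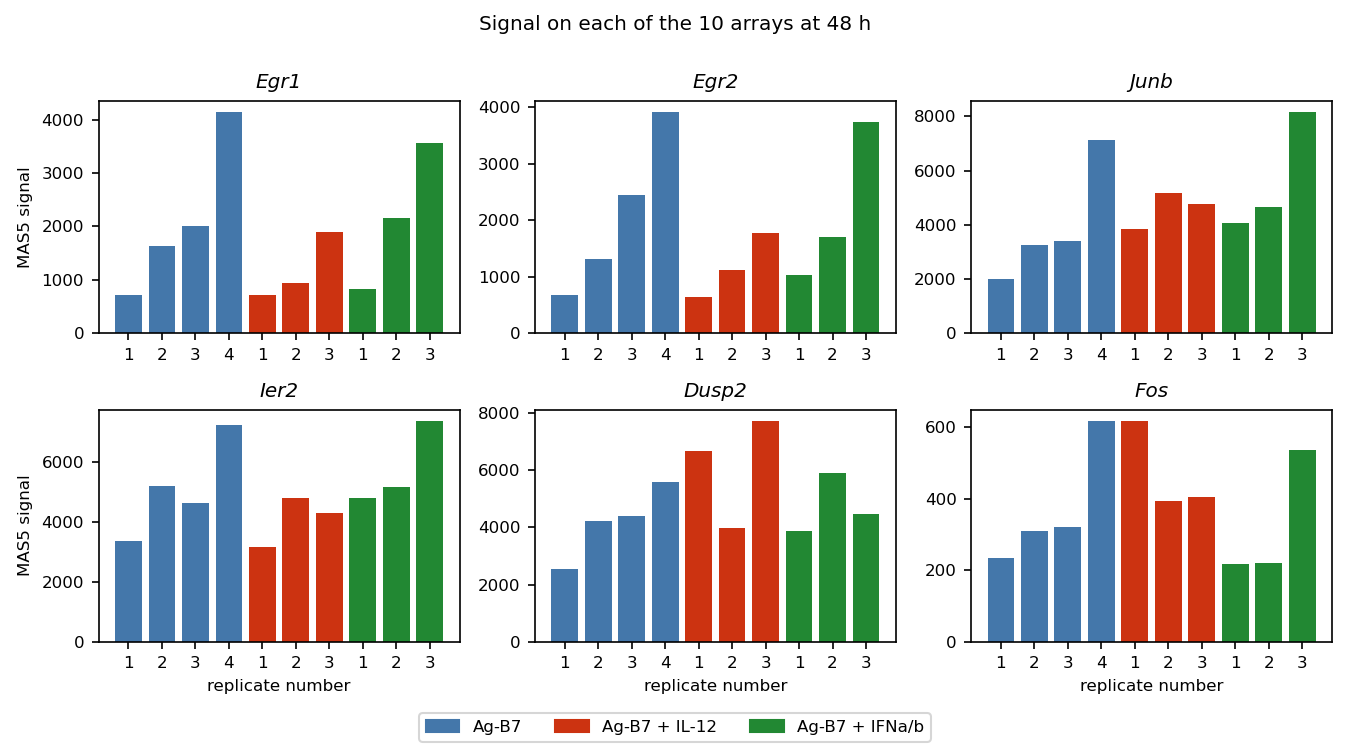
MAS5 signal (linear axis from 0, arbitrary units) of 6 of the genes on each of the 10 arrays at 48 h, by culture and replicate number. Ag-B7 replicate 4 and IFNa/b replicate 3 are the tallest 2 bars for Egr1, Egr2, Junb and Ier2, but not for Dusp2.

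Over the 17 stimulated arrays, which share platform and scaling, the members' log2 values were correlated most for Egr2 and Ier2 (Pearson r = 0.84), Fos and Dusp1 (0.79) and Egr1 and Egr2 (0.67). Jun and Ier2 were at the other end (-0.48). Jun was above the 40th percentile on only 4 of these 17 arrays, so its correlations rest mostly on values near background. Of all other genes tested, the 3 most like Egr1 over these arrays were Nfkbiz (0.92), Pak2 (0.90) and Ncoa3 (0.84), and those most like Egr2 were Zfp275 (0.89), Ccl3 (0.84) and Wbp4 (0.83). For Junb they were Nupr1 (0.85), Cox6a2 (0.85) and Trib3 (0.84), for Fos Bach1 (0.83), Gabarapl1 (0.82) and Lcp1 (0.82), and for Dusp1 Slc25a36 (0.89), Gbp3 (0.88) and Sqstm1 (0.86). The highest for the others were Gm8096 with Fosb (0.88), St3gal6 with Jun (0.84), Atg16l1 with Ier2 (0.83) and Csf1 with Dusp2 (0.82). These are descriptions over arrays that mix times and cultures, chosen as the highest of all genes.

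The early and late times had 1 array per group, so their values have no replicate check, and differences of at least 2-fold were counted. At 24 h Fos gave 204 with Ag-B7, 208 with IL-12 and 149 with IFNa/b, and in each culture this was below all its arrays at 48 h. Dusp1 followed the same order, with 400, 291 and 323 at 24 h. Against the mean of the naive arrays, 5 of the 9 genes were at least 2-fold lower at 24 h in each culture (Fos, Fosb, Jun, Junb and Dusp1), where 32.5% of all genes were with Ag-B7, 30.6% with IL-12 and 32.1% with IFNa/b. Egr2 went the other way at 24 h, with 2699, 2846 and 2215, all above the highest naive array. Its log2 difference from naive was 1.14 with Ag-B7, 1.22 with IL-12 and 0.86 with IFNa/b, past 2-fold in the first 2 cultures, and rises of at least 2-fold held for 19.3%, 19% and 19.2% of all genes. Neither cytokine moved a member 2-fold from Ag-B7 alone at 24 h, where IL-12 did so for 2.15% of all genes upward and 1.27% downward and IFNa/b for 1.69% and 1.21%. Under spike-in scaling the 24 h values of Junb turned from falls to 0.27, 0.63 and 0.43.

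From 24 to 48 h with IL-12, Dusp1 and Fos were at least 2-fold higher (1.38 and 1.00 on the log2 scale; 4.98% of all genes) and Egr2 lower (-1.36; 2.42%). With IFNa/b Dusp1 was 1.15 higher (3.31% of all genes) and 0 members passed 2-fold downward (0.971%), and with Ag-B7 alone no member passed 2-fold, where 4.09% of all genes were higher and 1.54% lower. From 48 to 72 h Egr1 was 1.49 higher with IL-12 (3129 against 710 to 1884; 9.3% of all genes), Egr2 was 1.30 lower with IFNa/b (730 against 1021 to 3734; 4.2%), and no member passed 2-fold with Ag-B7 alone, where 9.16% of all genes were higher and 6.59% lower. In the other direction 0 members passed 2-fold with either cytokine, against 6.39% of all genes lower with IL-12 and 6.75% higher with IFNa/b.

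At 72 h Fos and Dusp1 were still low in all 4 cultures: Fos gave 504, 651, 295 and 498 with Ag-B7, IL-12, IFNa/b and TSA, and Dusp1 gave 1039, 1062, 913 and 635. At that time 5 members lay at least 2-fold below the naive mean with Ag-B7 (16.1% of all genes) and with TSA (17.7%), again Fos, Fosb, Jun, Junb and Dusp1. With IL-12 there were 3 such members (Fos, Fosb and Dusp1; 16.8%), and with IFNa/b 5 (Fos, Fosb, Jun, Dusp1 and Dusp2; 21%). With Ag-B7 alone or with a cytokine 0 members were 2-fold above naive, against 13.3% of all genes with Ag-B7, 14.5% with IL-12 and 16.4% with IFNa/b. Jun gave 379 with IL-12, above naive replicate 3, where Ag-B7 gave 92, IFNa/b 80 and TSA 63. Junb gave 6241 with IL-12 and 6005 with IFNa/b, where Ag-B7 gave 2828 and TSA 3616. Relative to Ag-B7 at 72 h, IL-12 thus had 2 members at least 2-fold higher (Jun by 1.62 and Junb by 1.13; 5.22% of all genes) and 0 lower (4.14%), and IFNa/b had 1 higher (Junb by 1.07; 3.93%). IFNa/b had 2 members lower, Fosb by -1.09 and Egr2 by -1.01, where 3.57% of all genes were lower. TSA moved no member 2-fold from Ag-B7, where it did so for 7.09% of all genes upward and 8.97% downward: Egr2 gave 2659 against 1516 and Dusp2 7478 against 4800. Against naive cells Egr2 with TSA was 1.12 higher, the 1 member past 2-fold upward (15.8% of all genes).

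Other genes of the same response were taken from lists. Their counts of calls at 48 h against naive stand beside 35.6%, 34% and 33.1% of all genes lower and 26.1%, 24.8% and 25.3% higher with Ag-B7, IL-12 and IFNa/b. Under spike-in scaling these shares were 1.51%, 1.91% and 1.15% lower and 60.2%, 51.7% and 60.8% higher. Of 36 other immediate early genes, 29 were on the array and 27 were tested. After 48 h of Ag-B7, 20 of the 27 were lower and 2 higher (35.6% and 26.1% of all genes), with a median log2 difference of -1.49 against -0.23 for all genes. With IL-12 the counts were 20 lower and 2 higher and with IFNa/b 18 and 2. Under spike-in scaling 2 were lower and 5 higher for Ag-B7, where 60.2% of all genes were higher, with a median of 0.21 against 1.31 for all genes. Tnfaip3 (A20), the feedback inhibitor of NF-kappaB signalling, was lower by -4.93 ± 0.41 (limma adjusted p = 7.91e-08) and remained lower at -3.19 under spike-in scaling. The antiproliferative gene Btg1 differed by -2.85 ± 0.31 and Crem, a transcription factor of the cyclic AMP pathway, by -2.63 ± 0.50. The mRNA decay factor Zfp36 differed by -2.55 ± 0.33 with IL-12 and the kinase gene Sgk1 by -2.43 ± 0.52 with IFNa/b. Higher were Myc, the growth transcription factor, by 2.45 ± 0.34 and Ier3, a stress response gene, by 1.49 ± 0.46 with Ag-B7. Gem, a small GTPase, was the 1 gene of this list called between cultures at 48 h: it was higher with IL-12 than with Ag-B7 alone (2.13 ± 0.32, limma adjusted p = 0.00332) and than with IFNa/b (1.79 ± 0.34, limma adjusted p = 0.00969), the latter call being lost under spike-in scaling (0.219).

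**Figure D4:**
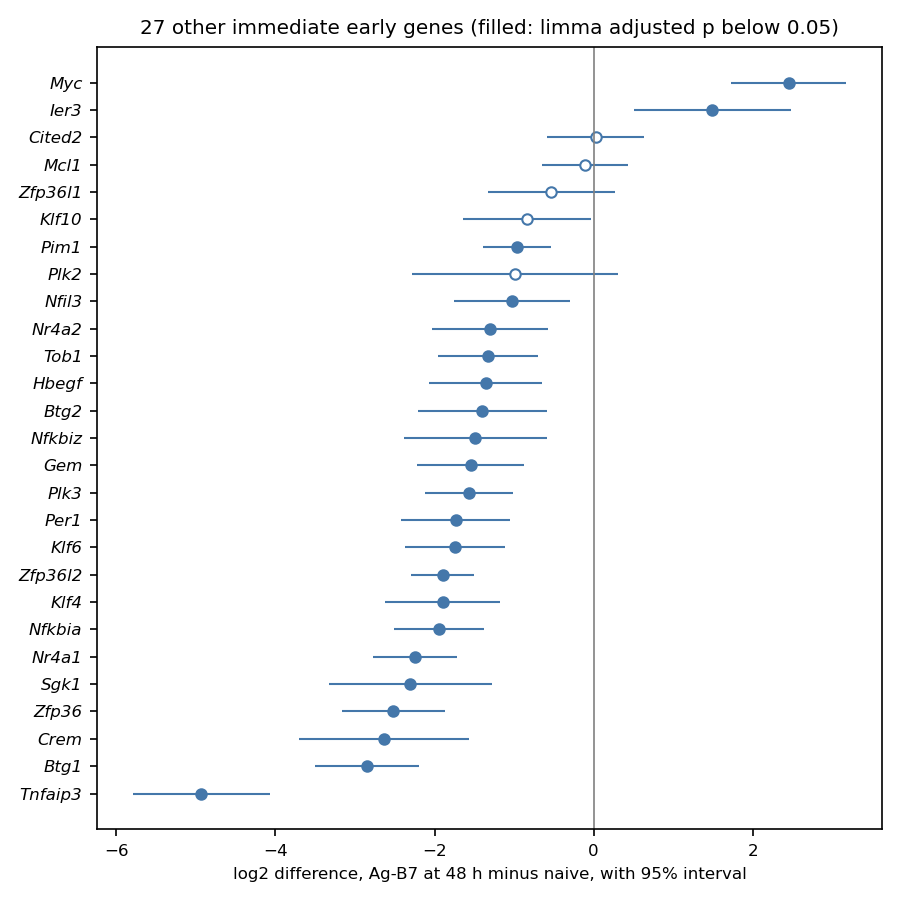
Log2 difference between Ag-B7 at 48 h and naive, with 95% intervals from limma, for 27 other immediate early genes ordered by size. Filled points have an adjusted p below 0.05. On the deposited scale 20 lie below 0 and are called and 2, Myc and Ier3, lie above, while under spike-in scaling 2 are called lower and 5 higher, where 60.2% of all genes are higher.

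Among 12 other AP-1 and partner genes, 2 were higher and 4 lower with Ag-B7, 3 and 3 with IL-12, and 4 and 3 with IFNa/b, against naive (for Ag-B7, 26.1% of all genes higher and 35.6% lower). Batf3, which pairs with Jun proteins, differed by 1.29 ± 0.47, 2.73 ± 0.50 and 2.68 ± 0.50 in these cultures and Batf by 0.96 ± 0.33, 1.62 ± 0.36 and 1.19 ± 0.36, all called by limma. Atf4, a regulator of amino acid metabolism, was 0.90 ± 0.25 higher with IL-12, and the stress factor Atf3 2.07 ± 0.52 higher with IFNa/b. The Fos relative Fosl2 was lower by -1.89 ± 0.35, -2.01 ± 0.37 and -1.73 ± 0.37, as were Mafk (-1.28 ± 0.20 with Ag-B7), Maff (-0.90 ± 0.38) and, with IFNa/b, Jund (-0.82 ± 0.21). Under spike-in scaling none of the 12 was called lower in the 3 comparisons, and 9, 8 and 9 were called higher, where 60.2%, 51.7% and 60.8% of all genes were.

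Of 4 other MAP kinase phosphatases 1 was higher in each comparison and 0 lower: Dusp6, which acts on ERK, with Ag-B7 (1.80 ± 0.47) and IFNa/b (1.52 ± 0.50), and Dusp19 with IL-12 (0.61 ± 0.23). Among 18 genes of the MAP kinase pathway, 10 were lower and 2 higher with Ag-B7 (35.6% and 26.1% of all genes), and 8 and 2 with either cytokine, but under median centring 1, 2 and 2 were lower and 4, 6 and 5 higher, and under spike-in scaling 0 were lower and 9, 7 and 9 higher. Median centring called 15.9%, 14.7% and 14.3% of all genes lower and 40.6%, 38.1% and 39% higher, and spike-in scaling 60.2%, 51.7% and 60.8% higher. Elk1, a ternary complex factor that binds beside serum response factor, was lower by -1.58 ± 0.32, its relative Elk4 by -1.25 ± 0.38 and the RAS exchange factor gene Sos1 by -1.19 ± 0.34 with Ag-B7. Rasgrp1, the RAS activator downstream of the T cell receptor, was lower by -1.67 ± 0.37 with IL-12, and the kinase gene Map2k6 by -1.54 ± 0.40 with IFNa/b. The kinase gene Map2k1 was higher by 0.92 ± 0.18 and Nras by 0.95 ± 0.21 with Ag-B7, although a dimmer probe set of Nras had the opposite sign.

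Among 5 EGR corepressor and NFAT genes, 2 were higher and 2 lower with Ag-B7, 0 and 1 with IL-12, and 2 and 1 with IFNa/b, while under spike-in scaling 0 were lower and 4, 3 and 4 higher. For Ag-B7, 26.1% of all genes were higher and 35.6% lower, and under spike-in scaling 60.2% and 1.51%. Nab2, a corepressor that EGR factors induce and that limits them, was 1.77 ± 0.40 higher with Ag-B7 and 1.75 ± 0.42 with IFNa/b. Nfatc1 was 0.87 ± 0.21 higher with Ag-B7, and lower with IL-12 than with Ag-B7 alone (-1.01 ± 0.21, limma adjusted p = 0.0294), a call lost under spike-in scaling (0.698). Nfatc2 was lower by -1.43 ± 0.39 and Nab1 by -0.44 ± 0.18 with Ag-B7. Of 10 heat shock genes, which respond to stress in the same time window, 4, 4 and 5 were higher and 2 lower in each comparison (for Ag-B7, 26.1% of all genes higher and 35.6% lower). Hsp90aa1 (1.50 ± 0.19), Hspe1 (1.03 ± 0.16) and Hspd1 (1.00 ± 0.18, with a dimmer probe set of opposite sign) were higher with Ag-B7. The inducible Hspa1a (-3.07 ± 0.59) and Hspa1b (-3.02 ± 0.49) were lower, and under spike-in scaling 2, 1 and 0 genes of the list remained lower.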

How the data were processed

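RNA was measured on 20 single-channel arrays, and the deposited values are intensity values, MAS5 signals for 12488 probe sets. The submitters' processing notes name MAS5, with no version. The authors' files hold a trimmed mean of 1000.46 to 1000.75 on every array, so arrays had been scaled to a common mean, while array medians ran from 232 to 507. Symbols came from the platform annotation, and of several probe sets the one with the highest mean log2 value stood for the gene. The 46.4 added before log2 is the median over arrays of the 20th percentile. Genes above the 40th percentile of the array on at least 3 of 13 replicated arrays were kept. A single limma fit (version 3.58.1, under R 4.3.3) with a variance trend covered the 13 arrays, was tested on simulated data beforehand and was followed by Benjamini-Hochberg adjustment over 6279 genes. The fit had 9 residual and 7.62 prior degrees of freedom and a median residual SD of 0.372. Errors after ± are standard errors. The number of arrays limits the precision. The labels call replicates biological without saying whether animals or cultures were separate, so p-values measure only the spread between these samples.

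The 9 genes and all lists were chosen with earlier results of these data known. From each list, the text names, per comparison, at most 3 called genes in each direction, those that moved most, and of a marker list only the gene with the highest naive level. Same-numbered arrays of different groups deviated together in part (18 pairs, correlations -0.10 to 0.28, 8 over 0.1). Pairs of other numbers ranged wider (45 pairs, -0.37 to 0.45, 10 over 0.1). Ag-B7 and IFNa/b arrays of numbers 1, 2 and 3 gave 0.11, -0.04 and -0.10. Ag-B7 replicates 2, 3 and 4 gave 0.28, 0.28 and 0.45 with IFNa/b replicates 1, 2 and 3. A block by number may therefore join the wrong IFNa/b arrays, which was not tested. The labels do not say that a replicate number marks a shared batch, so the main fit had no block. As alternatives, the number was a block over all 13 arrays and in the Ag-B7 and IL-12 arrays alone. In the latter all 3 pairs exceeded 0.1. No 2 arrays held identical values. Alternatives covered the pseudocount (16, 200), filter, normalization, spike-in scaling, probe sets, variance model, block and arrays left out.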

Additional observations from a re-analysis of the deposited data

Results flagged for a closer look

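Among 12 probe-set groups of 4 arrays examined, 1 sample lay far from the others. Fosb on Ag-B7 replicate 2 at 48 h had a signal of 114, where the other 3 arrays of the group had 580 to 770. On the log2(signal + 46.4) scale, on which groups were examined, the gap was 0.838 of the group's range. Chance alone marks about 1 in 20 groups. Without that array the log2 difference of Fosb between Ag-B7 and naive was -2.05, and the gene was called lower either way.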

How the results depend on the processing

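Pseudocounts of 16 and 200 and no filter changed no call of a member against naive cells. Nor did every probe set tested separately or fits of only the 2 groups compared. A stricter filter, at the 50th percentile, removed Jun, whose calls were then not tested, and changed no call of the other members. With no variance trend 1 call was lost, Junb with IFNa/b (limma adjusted p = 0.0565). Fos and Dusp1 stayed lower and called in the 3 comparisons with naive under every scaling tried. Spike-in scaling changed the counts most: the genes called lower went from 5, 6 and 5 (Ag-B7, IL-12, IFNa/b) to 2, 2 and 2, and those called higher from 0 to 4, 2 and 4, where 1.51%, 1.91% and 1.15% of all genes were lower and 60.2%, 51.7% and 60.8% higher. Median centring left 3 lower with IL-12, where 14.7% of all genes were lower. Leaving out 1 array at a time changed only the calls of Jun, Junb, Dusp2 and Ier2 against naive given above. Naive replicates 2 and 3 were also left out together, a choice made after the data were seen. That leaves 1 naive array, which is assumed to vary like the other groups, so that fit says nothing about stability. Signs turned under spike-in scaling (values for Ag-B7, IL-12 and IFNa/b against naive) for Junb (0.27, 0.42, 0.94), Egr1 (1.55, 0.67, 1.70), Dusp2 (1.11, 1.45, 1.40) and Ier2 (1.24, 0.75, 1.53), and for Egr2 with IL-12 (1.35). Under median centring they turned for Egr1 (0.48 with Ag-B7, 0.52 with IFNa/b), Ier2 (0.13 and 0.30), Egr2 with IL-12 (0.47) and Dusp2 (0.50 with IL-12, 0.18 with IFNa/b). Against naive replicate 1 alone (n = 1) the values had the opposite sign for Egr1 (0.15 with Ag-B7, 0.22 with IFNa/b) and Egr2 with IL-12 (0.38). Between cultures, spike-in scaling turned Fosb (-0.0018) and Dusp1 (-0.11) for IL-12 against Ag-B7, Dusp1 (0.065) for IFNa/b against Ag-B7, and Fosb (-0.16) and Dusp1 (-0.18) for IL-12 against IFNa/b. Of the single-array differences of at least 2-fold it turned Junb at 24 h (0.27, 0.63 and 0.43 for Ag-B7, IL-12 and IFNa/b against naive), Junb with TSA (0.20) and Dusp2 with IFNa/b at 72 h (0.94). Turns of smaller single-array differences are not listed. The cause of these turns was not tested.

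In another alternative the replicate number was a block over all 13 arrays. Called lower against naive, in addition, were Ier2 for Ag-B7 (-0.70, limma adjusted p = 0.0331) and Egr1 for IL-12 (-0.85, 0.0141). The block turned Fos (0.054) and Dusp1 (0.12) for IFNa/b against Ag-B7. Arrays 2 and 3 of those groups, joined by number, had correlations of -0.04 and -0.10. The block in the Ag-B7 and IL-12 arrays alone, added after the data were seen, gave 1 gene higher, Junb. It changed no other call of a member between these cultures.

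Leaving out 1 array at a time gave values of both signs in some cases. Against naive these were Egr1 (-0.57 to 0.25 with Ag-B7, -0.56 to 0.47 with IFNa/b) and, with IL-12, Egr2 (-0.48 to 0.23) and Dusp2 (-0.49 to 0.22). For IL-12 against Ag-B7 they were Fosb (-0.35 to 0.44) and Dusp1 (-0.065 to 0.21). For IFNa/b against Ag-B7 they were Fos (-0.58 to 0.054), Fosb (-0.44 to 0.34), Jun (-0.48 to 0.22), Egr1 (-0.39 to 0.64), Egr2 (-0.36 to 0.55), Dusp1 (-0.34 to 0.15) and Dusp2 (-0.011 to 0.36). For IL-12 against IFNa/b they were Fosb (-0.010 to 0.22), Junb (-0.43 to 0.069) and Dusp1 (-0.070 to 0.42). Jun, near background on most stimulated arrays, is limited by signal over background, and the 24 and 72 h values by single arrays.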
